A study of Mus musculus with 18 samples.

Results

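The keratins are the intermediate filament proteins of epithelial cells, and their genes were followed here through a mouse embryonic stem (ES) cell model in which Dlx2 is switched on. Members were the rows of both count tables whose symbol is Krt followed by digits alone, which leaves out keratin-associated proteins and pseudogenes. Of 50 matching symbols, 1 (Krt74) is annotated as a pseudogene and was left out, so 49 keratins of 54567 symbols in all were kept. All 49 stood in the table of days 8 and 16 and 39 in the day-2 table. By type, 26 are type I and 23 are type II. By the tissue they are known for, 5 are keratins of simple epithelia, 16 of stratified epithelia, 8 of the hair follicle's inner root sheath or companion layer, 13 of the hair shaft, and 7 were put in none of these classes. The genes lie in a pair of clusters, 25 members on chromosome 11 and 24 on chromosome 15.

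All 14 libraries, 2 per group in 7 groups, came from mouse ES cells carrying a tdTomato reporter for Msx1. At day 2 they are whole embryoid bodies (EBs) of a line with inducible Dlx2 overexpression and of a line with inducible GFP overexpression, both read as treated with 1 µg/ml doxycycline. At days 8 and 16 they are cells of induced Dlx2 EBs, sorted into Msx1-positive and Msx1-negative fractions. The remaining group is ES cells labelled WT and untreated. Whether the lines were single clones, or the libraries separate cultures, is not stated, so p-values measure the spread between these libraries, which may be technical. The study asks how Dlx2 moves ES cells toward ectomesenchyme, the neural crest mesenchyme of the face.

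Keratins work in pairs: a type I chain and a type II chain join into a heterodimer, and these build the filament that desmosomes anchor at the cell border. Krt8 and Krt18 form the pair of simple epithelia and of the early embryo's first epithelia. Krt25, Krt26, Krt27 and Krt28 are the type I keratins of the inner root sheath, the layer that moulds the growing hair, and Krt71 is a type II partner there. Mutations of Krt25, Krt27 or Krt71 give wavy or curly coats in mice.

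The day-2 libraries held between 26211608 and 41552818 counts each, the others between 53797597 and 107770730. Levels are given as CPM, scaled counts relative to the library total, as mean ± SD of n = 2 libraries. Differences are log2 values ± SE from edgeR's quasi-likelihood test with Benjamini-Hochberg adjustment over all genes tested, and a gene is called at an adjusted p below 0.05. Dlx2 was at 4528 ± 265 CPM in Dlx2 EBs, at 4 counts in all in GFP EBs and at 220 ± 2.0 CPM in the ES cells, although these are labelled WT. Later it was at 1203 ± 94 CPM in the Msx1-positive fraction against 270 ± 1.8 in the negative one at day 8, and at 315 ± 37 and 139 ± 10 CPM at day 16. Msx1 itself was at 43.8 against 1.46 CPM in the fractions of day 8 and at 77.7 against 0.785 at day 16. These are bulk samples, in which fewer cells of a type and less RNA per cell cannot be told apart.

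**Figure D1:**
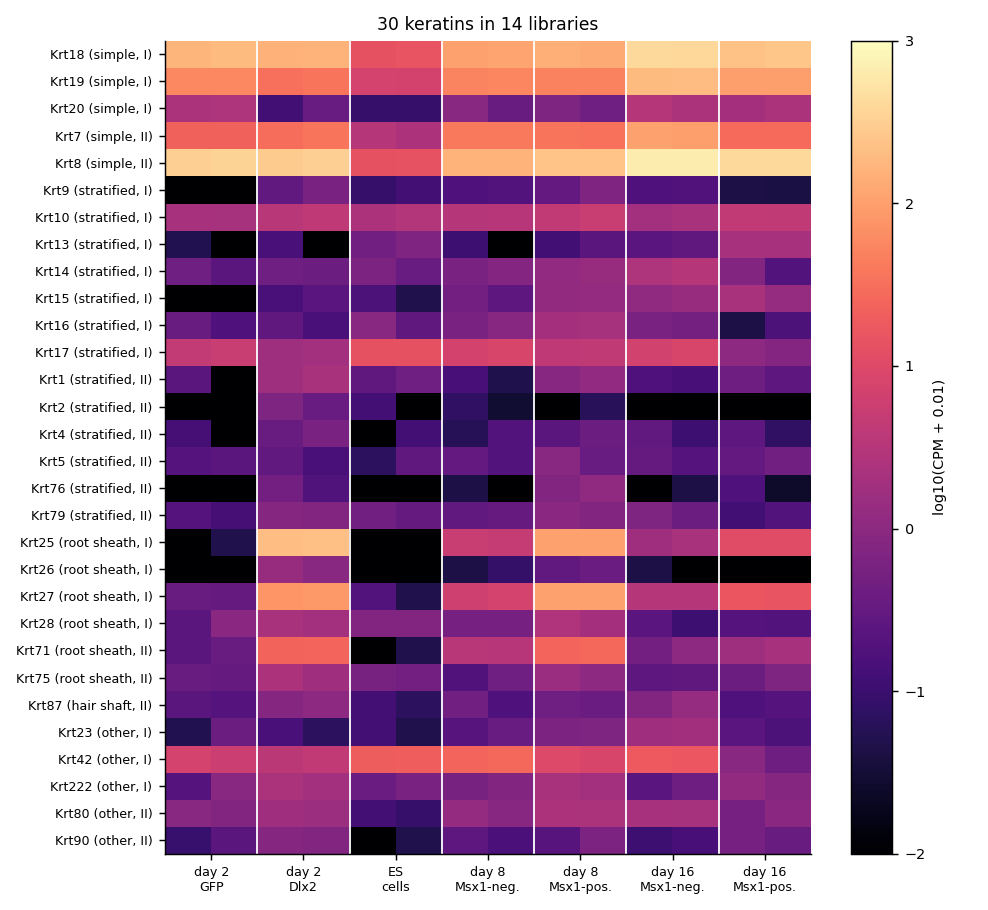
Level of 30 keratins in each of 14 libraries, as log10 of CPM plus 0.01 (colour), with rows ordered by class and type and columns by group. Shown are the members that reached a group mean of 1 CPM or were called in a comparison. Krt25, Krt27 and Krt71 are bright in the Dlx2 EBs and the day-8 Msx1-positive cells, and Krt8 and Krt18 in every group apart from the ES cells.

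The most marked keratin signal of the Dlx2 EBs was that of the inner root sheath. Krt25 stood at 215 and 224 CPM in the Dlx2 libraries and at 0 and 0.0404 CPM in the GFP libraries, where it had 1 count in all. That is a ratio of 10810, with a 95% exact counting interval of 1940 to 426995 (adjusted p = 7.77e-25). Krt27 stood at 79.8 and 86.5 CPM with Dlx2 and at 0.365 and 0.323 with GFP, a rise of 7.90 ± 0.14 (adjusted p = 9.37e-22). Its type II partner Krt71 was at 23.1 and 25.0 CPM against 0.243 and 0.363, a rise of 6.29 ± 0.20 (adjusted p = 1.32e-17). For each of these 3 genes both Dlx2 libraries lay far above both GFP libraries. Krt26 had 60 and 32 counts with Dlx2 and 0 with GFP, at least 19.3-fold higher when the GFP group is set to a floor of 3 counts in total.

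The remaining root sheath members moved less. Krt75, of the companion layer, was at 2.47 and 1.71 against 0.365 and 0.323 CPM, a rise of 2.60 ± 0.39 (adjusted p = 3.88e-06). Krt28 was at 2.27 and 1.91 against 0.243 and 0.969 CPM, a rise of 1.78 ± 0.40 (adjusted p = 0.000464) that was 1.10 without GFP library 1 and 3.08 without GFP library 2. Day-2 libraries are numbered in column order, because their columns carry no replicate number. Of the 8 root sheath keratins, Krt72 was too low to be tested and Krt73 had no row at day 2. Krt25, Krt26, Krt27, Krt71 and Krt75 had 9 or fewer counts in each GFP library and passed the filter on low counts through the Dlx2 libraries, so their passing already implied a difference.

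Krt25, Krt26, Krt27 and Krt28 are neighbours at one edge of the chromosome 11 cluster, with starts 15.0, 28.2 and 52.0 kb apart from that of Krt25 in this order. Their promoter windows, from 250 bases before to 50 bases after the RefSeq start on GRCm38, are shown with those of Krt71 and Krt75 on chromosome 15 because these are the 6 root sheath genes called higher when Dlx2, a homeobox factor, was induced. Capitals mark TAATTA and CAATTA, searched on both strands, which are letters that homeodomain proteins are known to favour and which share the core AATTA. All windows lie on the minus strand and read in the direction of the gene.
Krt25 (chr11:99322902-99323201): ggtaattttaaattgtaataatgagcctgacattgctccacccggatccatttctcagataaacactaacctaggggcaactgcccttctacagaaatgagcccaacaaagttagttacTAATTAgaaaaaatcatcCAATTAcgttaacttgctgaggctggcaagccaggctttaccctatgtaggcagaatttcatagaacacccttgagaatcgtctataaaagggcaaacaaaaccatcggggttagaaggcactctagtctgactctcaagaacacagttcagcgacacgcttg
Krt26 (chr11:99337916-99338215): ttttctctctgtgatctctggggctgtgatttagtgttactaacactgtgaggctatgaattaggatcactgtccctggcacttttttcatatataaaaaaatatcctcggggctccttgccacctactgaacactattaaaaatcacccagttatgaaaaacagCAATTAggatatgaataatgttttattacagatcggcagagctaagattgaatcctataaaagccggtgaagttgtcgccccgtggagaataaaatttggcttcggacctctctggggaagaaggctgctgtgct
Krt27 (chr11:99351069-99351368): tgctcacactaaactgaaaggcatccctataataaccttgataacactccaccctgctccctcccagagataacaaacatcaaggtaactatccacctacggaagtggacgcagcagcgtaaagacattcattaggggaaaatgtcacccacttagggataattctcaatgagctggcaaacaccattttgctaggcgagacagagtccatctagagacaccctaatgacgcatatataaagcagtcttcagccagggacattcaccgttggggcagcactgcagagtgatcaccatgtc
Krt28 (chr11:99374854-99375153): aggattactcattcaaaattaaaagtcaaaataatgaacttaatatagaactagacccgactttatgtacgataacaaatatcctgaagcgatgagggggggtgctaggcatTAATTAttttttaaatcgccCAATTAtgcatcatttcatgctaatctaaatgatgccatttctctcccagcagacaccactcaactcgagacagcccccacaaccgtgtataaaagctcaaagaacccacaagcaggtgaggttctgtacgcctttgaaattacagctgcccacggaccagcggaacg
Krt71 (chr15:101743048-101743347): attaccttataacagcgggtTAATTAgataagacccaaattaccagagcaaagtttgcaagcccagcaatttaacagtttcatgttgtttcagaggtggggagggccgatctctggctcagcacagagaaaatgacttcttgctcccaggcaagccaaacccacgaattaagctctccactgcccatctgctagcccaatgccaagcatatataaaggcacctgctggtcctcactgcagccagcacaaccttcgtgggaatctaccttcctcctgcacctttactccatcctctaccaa
Krt75 (chr15:101573855-101574154): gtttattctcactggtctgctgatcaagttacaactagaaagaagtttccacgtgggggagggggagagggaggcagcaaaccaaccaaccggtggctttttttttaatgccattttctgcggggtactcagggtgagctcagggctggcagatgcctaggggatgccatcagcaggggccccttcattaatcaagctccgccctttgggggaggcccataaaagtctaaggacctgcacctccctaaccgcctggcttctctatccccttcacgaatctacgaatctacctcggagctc
The Krt25 window holds TAATTA 131 bases and CAATTA 113 bases before the start, and that of Krt28 holds TAATTA at 138 and CAATTA at 118 bases. Krt26 has CAATTA 85 bases and Krt71 has TAATTA 230 bases before the start. Krt27 and Krt75 have neither. Over all 32851 promoter windows, 5.29% held TAATTA, 8.00% held CAATTA and 12.4% held either. A RefSeq window was found for 35 of the 49 keratins, and 9 of them hold either motif: Krt25, Krt26, Krt28, Krt71 and Krt73 among the 8 root sheath genes, and Krt24, Krt32, Krt42 and Krt76. None of the 4 matched simple keratins (Krt7, Krt8, Krt18 and Krt20) has one. These matches describe the letters only. Krt73 held 3 of them, and its group means in the sorted cells and ES cells were at most 0.0468 CPM. It had no row for the Dlx2 and GFP EBs, so its level in those EBs is not known. The windows also differ in base composition, with 57.7% A and T in that of Krt25, 42% in that of Krt8 and a median of 47.3% over all windows.

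**Figure D2:**
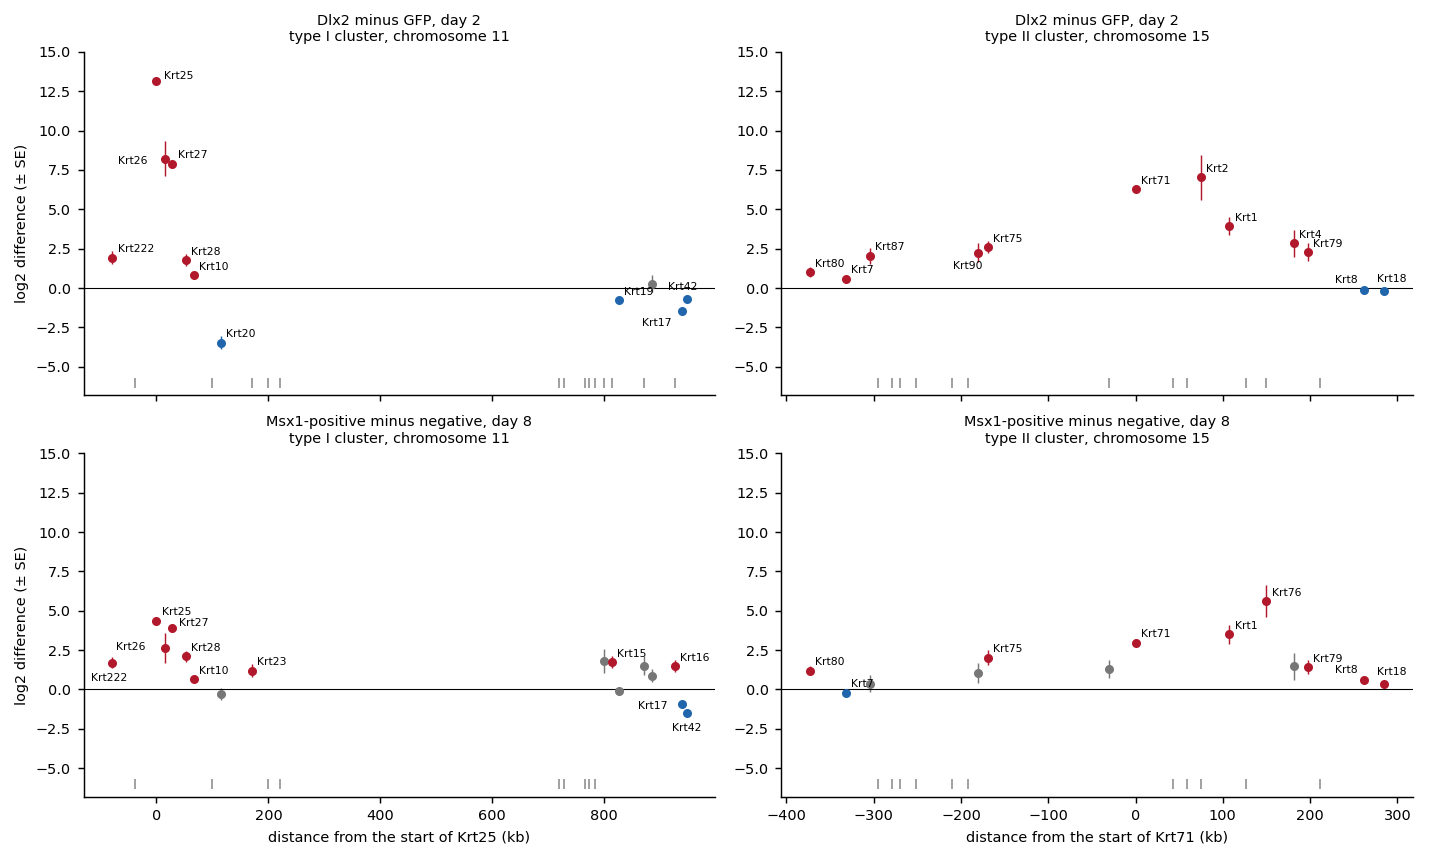
Log2 difference (points, ± SE) of each tested keratin against its distance in kb from the start of Krt25 (left) or Krt71 (right), for Dlx2 minus GFP EBs at day 2 (top) and Msx1-positive minus Msx1-negative cells at day 8 (bottom). Red is called higher, blue called lower, grey not called, and ticks at the bottom mark members not tested; fitted values of Krt25, Krt26, Krt2 and Krt4 at day 2 rest on 0 to 3 GFP counts. At day 2 the rise is steepest at Krt25, Krt26 and Krt27, while Krt20 and the far ends with Krt17, Krt42, Krt8 and Krt18 lie below 0.

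Over the whole family at day 2, 23 members were tested, of which 16 were called higher, against 34.1% of all 18650 genes, and 6 lower, against 33.0%. The median difference of the tested keratins was 1.92, against 0.02 over all genes. In the root sheath class 6 of 6 tested were higher, with the reservation on the filter given above, so these counts and the median describe the members tested and are no support for a difference of the family.

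Simple epithelial keratins were the most abundant class in both, and the differences of Krt8 and Krt18 were small. Krt8 was at 293 and 314 CPM with Dlx2 and at 320 and 354 with GFP, and Krt18 at 158 and 165 against 168 and 195. Their differences of -0.15 ± 0.054 (adjusted p = 0.0156) and -0.17 ± 0.059 (adjusted p = 0.013) were called, but neither was called, and both turned positive, when counts were scaled by library size alone (0.02 for Krt8 and 0.001 for Krt18). That scaling moves the median of all genes by a like amount, from 0.02 to 0.20, so both keratins lay below the median gene under either scaling. Both calls were also lost without GFP library 2 (-0.09 for Krt8 and -0.07 for Krt18) or Dlx2 library 1 (-0.10 and -0.14), while without GFP library 1 the values were -0.24 and -0.29. Over all alternatives the adjusted p ran from 7.56e-05 to 0.757 for Krt8 and from 6.29e-06 to 0.992 for Krt18.

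Other simple keratins moved beyond the spread. Krt19, the smallest keratin, was at 32.2 and 36.1 CPM with Dlx2 and at 57.8 and 58.6 with GFP, a fall of 0.77 ± 0.074 on the log2 scale (adjusted p = 4.21e-09). Krt20, a keratin of gut and urothelium, had 5 and 12 counts with Dlx2 against 57 and 65, and fell by 3.47 ± 0.42 (adjusted p = 2.11e-07). Krt7, a type II keratin of ducts and early trophoblast, was at 30.1 and 36.0 against 21.9 and 22.2 CPM, a rise of 0.58 ± 0.09 (adjusted p = 6.42e-06). Thus 1 of 5 simple keratins was called higher, against 34.1% of all genes, and 4 lower, against 33.0%, of which Krt8 and Krt18 lose their calls as given above.

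Among keratins of stratified epithelia, 7 of 16 could be tested at day 2. Krt17, an early keratin of ectoderm and of the follicle's outer root sheath, was at 1.65 and 1.85 CPM with Dlx2 and at 4.54 and 5.25 with GFP, a fall of 1.49 ± 0.21 (adjusted p = 2.12e-06). Krt42, its neighbour and a type I keratin left unclassed, fell by 0.70 ± 0.18, from 6.68 ± 1.3 to 4.12 ± 0.55 CPM (adjusted p = 0.00134). Krt10, a keratin of suprabasal epidermis, rose by 0.81 ± 0.22 to 3.71 ± 0.47 CPM (adjusted p = 0.00254), and its type II partner Krt1 went from 6 and 0 counts to 73 and 76, a rise of 3.94 ± 0.57 (adjusted p = 2.27e-06). Without GFP library 1 the fitted value of Krt1 was 9.04, as the remaining GFP library has no count. The call of Krt10 was lost without Dlx2 library 2 (0.69, with adjusted p from 0.000293 to 0.0598 over its alternatives).

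Of the basal pair of the epidermis, Krt5 had 5 to 13 counts per day-2 library and was not tested, and Krt14 stood at 0.418 ± 0.018 CPM with Dlx2 against 0.344 ± 0.14 (adjusted p = 0.674). Krt2, a keratin of upper epidermis, had 29 and 12 counts against 0, at least 8.58-fold higher, and Krt4, of oral and oesophageal lining, 16 and 20 against 3 and 0. The call of Krt4 was lost without Dlx2 library 2 (2.51) or GFP library 2 (1.89) and was 7.01 without GFP library 1, and its adjusted p ran from 0.002 to 0.15. Krt79, Krt80, Krt87, Krt90 and Krt222 also rose, by 1.01 to 2.27, to levels of 0.78 to 2.14 CPM. Of these, Krt79 lost its call without Dlx2 library 1 (2.19), as did Krt90 (2.13), and Krt80 lost it without Dlx2 library 1 (0.95), Dlx2 library 2 (1.07) or GFP library 2 (0.86) and with DESeq2 (1.01). Krt222 was 1.20 without GFP library 1 and 3.38 without GFP library 2.

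At day 8 the root sheath keratins marked the Msx1-positive fraction. Krt25 was at 103 and 106 CPM in Msx1-positive cells against 5.31 and 4.75 in the Msx1-negative libraries, higher by 4.37 ± 0.10 (adjusted p = 1.44e-13). Krt27 was at 108 and 106 against 6.22 and 7.76 CPM, a difference of 3.94 ± 0.099 (adjusted p = 2.23e-13). Krt71 was at 24.9 and 27.2 against 3.34 and 3.29 CPM, a difference of 2.97 ± 0.20 (adjusted p = 2.45e-08). In all 3 cases the fractions stood well apart, and the Msx1-negative cells still held more than the 0 to 10 counts per library of the ES cells.

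Krt28, at 2.33 ± 0.52 against 0.535 ± 0.00081 CPM, and Krt75, at 1.27 ± 0.30 against 0.311 ± 0.19, were higher by 2.11 ± 0.36 and 2.03 ± 0.47 (adjusted p = 0.000163 and 0.00181). Krt26 had 21 and 43 counts against 2 and 4. Its call (2.64 ± 0.96, adjusted p = 0.0321) was lost without any 1 of the 4 day-8 libraries, between 2.12 without Msx1-negative replicate 1 and 3.27 without Msx1-negative replicate 2, and its adjusted p ran from 0.00892 to 0.201. It was also lost with DESeq2 (2.61). In all, 6 of 6 tested root sheath keratins were called higher, but Krt26 passed the filter on low counts only through the Msx1-positive libraries of day 8, so its passing already implied a difference. Of the 29 keratins tested, 17 were higher, against 30.4% of 22294 genes, and 3 lower, against 24.3%. Their median difference was 1.43, against 0.06 over all genes. The 17 and the median include Krt26 and Krt76, which both passed the filter in that way. They describe the members tested and are no support for a difference of the family.

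**Figure D3:**
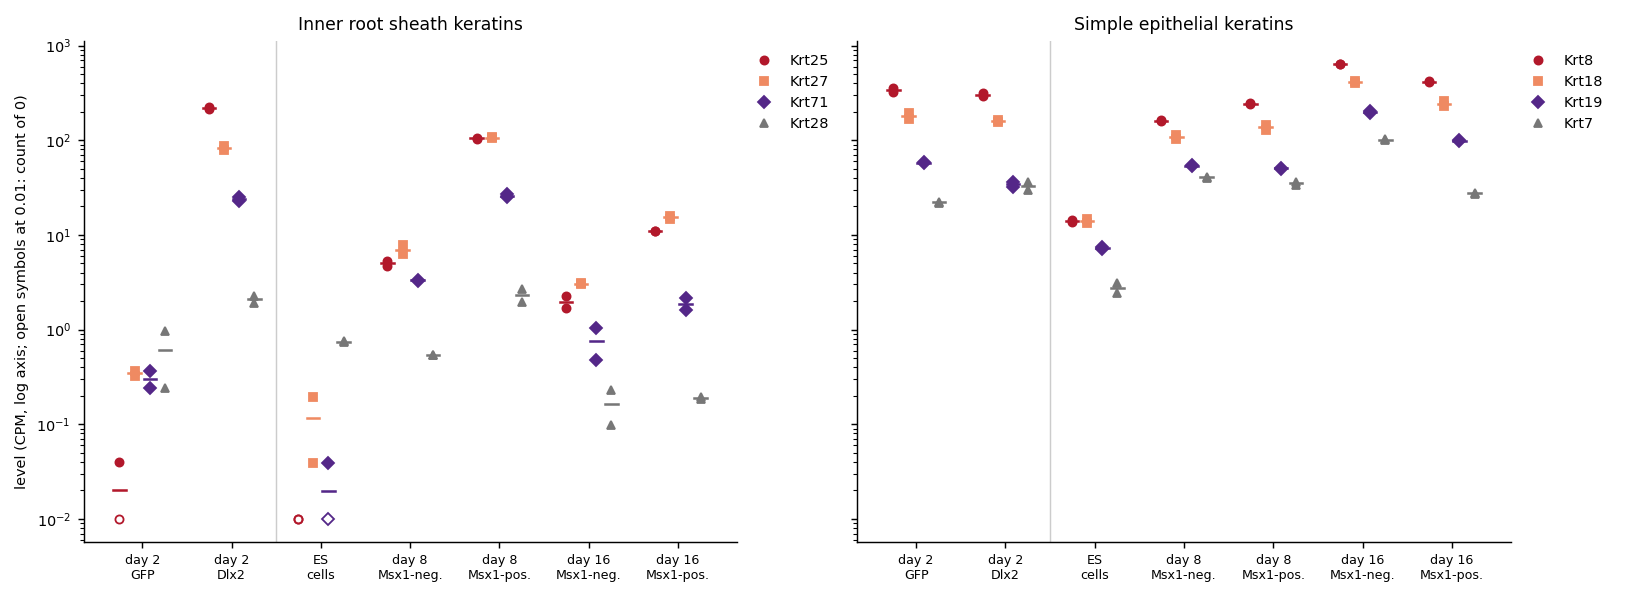
Levels in CPM (log axis) of 4 root sheath keratins (left) and 4 simple epithelial keratins (right), with a point per library and a bar at the mean of each group. Open symbols at 0.01 mark counts of 0, and the vertical line separates the tables, which were scaled separately. Krt25, Krt27 and Krt71 are highest in the Dlx2 EBs and the day-8 Msx1-positive cells, and Krt8, Krt18, Krt19 and Krt7 in the day-16 Msx1-negative cells.

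The simple keratins differed less between the day-8 fractions. Krt8 was at 242 and 246 CPM in Msx1-positive cells against 159 and 162, a difference of 0.60 ± 0.052 (adjusted p = 1.51e-07). Krt18 was at 145 and 129 against 104 and 114 CPM, 0.33 ± 0.076 (adjusted p = 0.00194), and its call was lost without Msx1-negative replicate 1 (0.23, with adjusted p up to 0.0712 over its alternatives). Krt19 was at 51.1 and 50.1 against 53.1 and 54.6 CPM and was not called (-0.09 ± 0.055, adjusted p = 0.189). Krt7, at 36.2 and 34.1 against 40.7 and 40.3 CPM, was called lower (-0.21 ± 0.064, adjusted p = 0.0133), but not with scaling by library size alone (-0.05) or without Msx1-positive replicate 2 (-0.16), and its adjusted p ran to 0.546. Scaling by library size alone moves the median of all genes at day 8 from 0.06 to 0.22.

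Among stratified keratins at day 8, 6 of 12 tested were higher, against 30.4% of all genes, and Krt17 was lower, against 24.3%. Krt76, a keratin of palate and gum, had 54 and 126 counts against 2 and 0, a ratio of 56.0 with a counting interval of 15.3 to 466 (adjusted p = 0.000294), and its fitted log2 value went from 5.62 to 9.02 without Msx1-negative replicate 1, the only Msx1-negative library of day 8 with a count. Like Krt26, it passed the filter only through the day-8 Msx1-positive libraries. Krt1 was at 0.851 and 1.12 against 0.130 and 0.0369 CPM, higher by 3.51 ± 0.59 (adjusted p = 0.000131). Krt15, a keratin of basal cells and of the follicle's bulge, was higher by 1.72 ± 0.39 at 1.22 ± 0.0046 CPM, and Krt16, of wounded and fast-dividing epidermis, by 1.46 ± 0.38 at 2.02 ± 0.054 CPM. Krt10 was higher by 0.65 ± 0.18, which was lost without Msx1-positive replicate 2 (0.52) or Msx1-negative replicate 1 (0.58), with adjusted p from 0.00155 to 0.0882. Krt79 (1.43 ± 0.46) was not called without Msx1-positive replicate 1 (1.25), Msx1-negative replicate 1 (1.30) or Msx1-negative replicate 2 (1.49).

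Krt17 was at 4.10 and 4.26 CPM in the Msx1-positive libraries against 7.18 and 8.39 in the Msx1-negative ones, -0.90 ± 0.17 (adjusted p = 0.000379), and Krt42 at 9.95 and 8.16 against 24.9 and 26.9 CPM, -1.52 ± 0.16 (adjusted p = 1.61e-06). Both genes were thus lower where the root sheath keratins were higher. Of the unclassed members Krt80 (1.20 ± 0.30), Krt222 (1.69 ± 0.35) and Krt23 (1.20 ± 0.40) were higher, and Krt23 lost its call without Msx1-positive replicate 1 (1.21), Msx1-positive replicate 2 (1.20) or Msx1-negative replicate 1 (0.84).

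By day 16 fewer keratins than at day 8 were called higher in Msx1-positive against Msx1-negative cells, and more were called lower. The shift is one of this contrast. Summed over all keratins, CPM per kilobase of exon rose from day 8 to day 16 in both fractions, and more in Msx1-negative cells. At day 16, 7 of 29 tested were higher, against 31.1% of all genes, and 13 lower, against 31.0%. The median difference was -0.31, against -0.02 over all genes. All 5 simple keratins had values below 0 and 4 were called. Krt8 was at 419 and 417 CPM in the Msx1-positive libraries against 638 and 648 in the Msx1-negative ones, -0.62 ± 0.052 (adjusted p = 7.09e-08). Krt18 was at 228 and 259 against 419 and 403 CPM, -0.76 ± 0.075 (adjusted p = 4.88e-07), and Krt19 at 99.1 and 99.8 against 197 and 204 CPM, -1.01 ± 0.054 (adjusted p = 5.27e-10). Krt7 had the widest gap of the 4, at 27.9 and 27.4 against 104 and 99.6 CPM, -1.89 ± 0.066 (adjusted p = 4.06e-12). Krt20, at 1.99 and 2.37 against 3.06 and 2.34 CPM, was not called (-0.31 ± 0.34, adjusted p = 0.448).

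Root sheath keratins stayed higher in Msx1-positive cells at day 16, at lower levels than before. Krt25 was at 11 and 10.9 CPM against 1.68 and 2.27, 2.47 ± 0.12 (adjusted p = 1.51e-10), and Krt27 at 15.9 and 14.7 against 3.06 and 3.07, 2.32 ± 0.11 (adjusted p = 1.03e-10). Krt71 was at 1.62 and 2.14 against 0.474 and 1.05 CPM, 1.30 ± 0.27 (adjusted p = 0.000738), which became 0.82 without Msx1-negative replicate 1 and 1.98 without Msx1-negative replicate 2. Krt28 and Krt75, at 0.191 and 0.53 CPM in Msx1-positive cells, and Krt26, with 2 counts in all 4 day-16 libraries together, were not called.

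Outside the simple and root sheath classes the calls at day 16 went both ways, with 2 higher and 5 lower of 12 stratified and 2 higher and 3 lower of 5 unclassed keratins, against 31.1% and 31.0% of all genes. Krt42 was at 0.891 and 0.421 CPM in the Msx1-positive libraries against 18.1 and 16.5 in the Msx1-negative ones, -4.73 ± 0.21 (adjusted p = 2.27e-10), and Krt17 at 1.05 and 0.795 against 6.89 and 8.31 CPM, -3.04 ± 0.20 (adjusted p = 4.62e-09). Krt23, a type I keratin of gut and breast epithelium, was at 0.227 and 0.156 against 1.73 and 1.78 CPM, -3.19 ± 0.41 (adjusted p = 8.32e-06), and Krt14 at 0.745 and 0.187 against 2.57 and 3.11 CPM, -2.61 ± 0.44 (adjusted p = 0.00013). Krt16 was at 0.0324 and 0.156 against 0.589 and 0.491 CPM, -2.49 ± 0.53, and -3.99 without Msx1-positive replicate 2. Krt80 (-1.5 ± 0.32), Krt87 (-2.49 ± 0.54), Krt79 (-1.81 ± 0.51) and Krt9 (-2.37 ± 0.85) were called lower too. Krt79 lost its call without Msx1-positive replicate 1 (-1.5) or Msx1-negative replicate 1 (-1.39). Krt9, the keratin of palm and sole skin, had 2 counts in each Msx1-positive library and lost its call without any 1 of the 4 libraries (-2.46 to -2.30).

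A few keratins went the other way at day 16. Krt13, a keratin of oral and oesophageal lining, was at 2.12 and 2.1 CPM in Msx1-positive against 0.229 and 0.278 in Msx1-negative cells, 3.05 ± 0.54 (adjusted p = 0.000174), its highest level in the study. Krt10 was at 4.47 and 4.15 against 1.90 and 2.27 CPM, 1.04 ± 0.19 (adjusted p = 0.000223), and Krt222 at 1.17 and 0.81 against 0.229 and 0.409, 1.62 ± 0.38 (adjusted p = 0.00199). Krt90 (1.92 ± 0.69) lost its call without Msx1-positive replicate 1 (1.63), Msx1-negative replicate 1 (1.71) or Msx1-negative replicate 2 (2.13).

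The change of the Msx1 effect between days was tested as an interaction. The effect was lower at day 16 for 17 of 29 keratins, against 18.3% of all genes, and higher for 0, against 10.3%. None was higher at an unadjusted p below 0.05 in edgeR, or in DESeq2 at an adjusted p below 0.05. The median was -1.77, against -0.10 over all genes, and scaling by library size alone, under which the median of all genes is -0.28, gave 18 lower and 0 higher. Krt8 and Krt18 went from higher to lower in Msx1-positive cells, with differences between days of -1.23 ± 0.074 (adjusted p = 2.12e-08) and -1.08 ± 0.11 (adjusted p = 2.82e-06). For Krt25 and Krt27 the effect kept its direction and shrank, by -1.91 ± 0.16 (adjusted p = 6.68e-07) and -1.62 ± 0.15 (adjusted p = 1.21e-06). Krt23, Krt16, Krt79 and Krt80 were called higher at day 8 and lower at day 16.

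**Figure D4:**
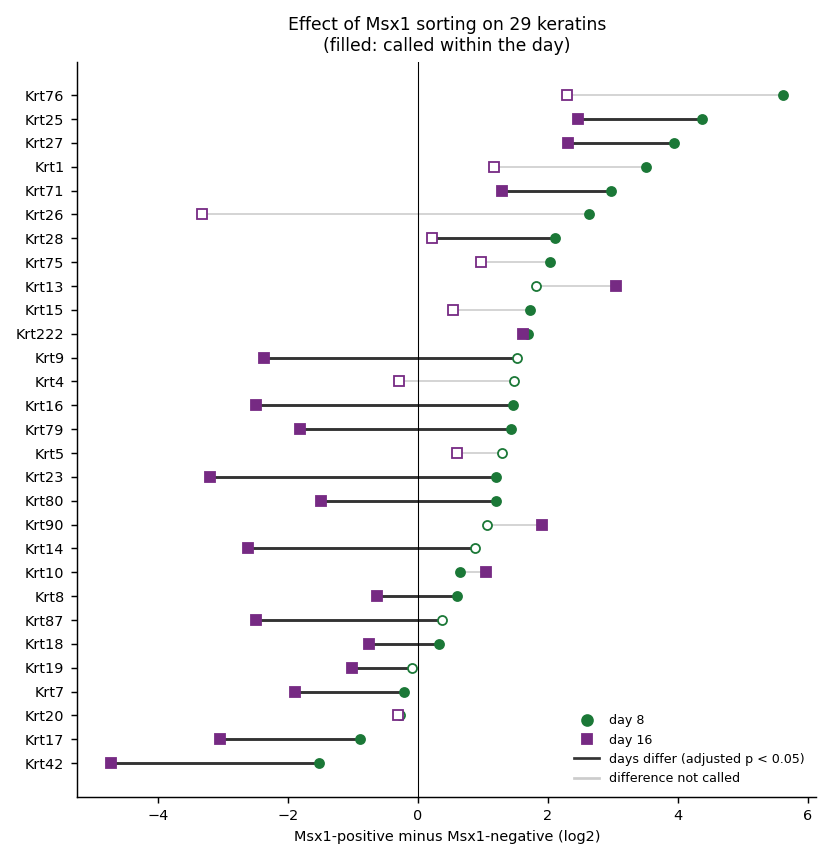
Msx1-positive minus Msx1-negative difference (log2, x axis) of the 29 tested keratins at day 8 (circles) and day 16 (squares), filled where called within the day. Dark lines join the 17 keratins whose effect differed between the days; each of these runs to the left from day 8 to day 16, and that of Krt28 loses its call under several alternatives.

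Within the fractions, time told the same levels from another side, using the same libraries. In Msx1-positive cells 5 of 29 keratins were higher at day 16 than at day 8, against 21.1% of genes, and 18 lower, against 24.8%. The 5 were Krt8 (0.77 ± 0.052), Krt18 (0.83 ± 0.075), Krt19 (0.97 ± 0.055), Krt20 (2.03 ± 0.37) and Krt13 (3.50 ± 0.54). Krt25 fell by 3.25 ± 0.096, Krt27 by 2.80 ± 0.091 and Krt71 by 3.79 ± 0.22 (adjusted p = 3.31e-12, 8.39e-12 and 5.84e-09). Krt26, with 64 counts in the day-8 libraries and 0 at day 16, was at least 14.4-fold lower. As Krt26 and Krt76 passed the filter on low counts only through the day-8 Msx1-positive libraries, their passing already implied a fall. Both are among the 18. Krt16 fell by 4.39 ± 0.49 and Krt42 by 3.79 ± 0.22.

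In Msx1-negative cells 11 keratins were higher at day 16, against 19.7%, and 6 lower, against 17.8%. Krt8 rose by 2.00 ± 0.054, Krt18 by 1.92 ± 0.078, Krt19 by 1.89 ± 0.056 and Krt7 by 1.33 ± 0.064, and Krt23 and Krt14 by 2.65 ± 0.40 and 2.08 ± 0.43. Krt25, Krt27 and Krt71 fell by 1.35 ± 0.13, 1.18 ± 0.11 and 2.12 ± 0.25. The root sheath trio therefore fell, and Krt8, Krt18 and Krt19 rose, in both fractions.

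Against ES cells, which hold Dlx2 counts of their own as given above, all 4 sorted groups had more of the simple keratins. Krt8 was at 13.8 and 14.3 CPM in ES cells and Krt18 at 13.5 and 14.8, and Krt8 was higher by 4.12 ± 0.060 in day-8 Msx1-positive, by 3.52 ± 0.059 in day-8 Msx1-negative and by 4.90 ± 0.061 in day-16 Msx1-positive cells (adjusted p = 1.52e-18, 1.04e-16 and 9.73e-20). Krt25 had 0 counts in both ES libraries and was at least 3600-fold higher in day-8 Msx1-positive, 173-fold in day-8 Msx1-negative and 376-fold in day-16 Msx1-positive cells. Krt17 and Krt42 were among the more abundant keratins of ES cells, at 13.3 and 13.8 and at 19.9 and 20.6 CPM, and in day-16 Msx1-positive cells Krt17 was lower by 3.88 ± 0.19 on the log2 scale. Day-8 Msx1-positive cells had 24 of 29 keratins higher, against 34.6% of 22504 genes, and 3 lower, against 26.9%. Day-8 Msx1-negative cells had 12 higher, against 19.0%, and 3 lower, against 14.5%. Day-16 Msx1-positive cells had 15 higher, against 37.3%, and 5 lower, against 33.7%, and day-16 Msx1-negative cells 13 higher, against 28.5%, and 2 lower, against 24.5%. Without ES replicate 1, 3 keratins rather than 5 were lower in day-16 Msx1-positive cells. These 4 comparisons share the ES libraries. Krt25, without an ES count, passed the filter on low counts through the sorted groups, so its passing already implied a difference from ES cells. The same holds for Krt26 and Krt76, which passed only through day-8 Msx1-positive libraries. Krt27 and Krt71, with few ES counts as given above, also passed through the sorted groups, and other keratins low in ES cells may have done so. These counts therefore describe the members tested and are no support for a difference of the family.

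Levels of different keratins were compared per kilobase of annotated exon. The root sheath class made up 37.3% and 37.0% of summed keratin CPM per kilobase in the Dlx2 EBs and 0.205% and 0.300% in the GFP EBs. In day-8 Msx1-positive cells its share was 33.0% and 34.0%, against 3.93% and 4.07% in Msx1-negative cells, and at day 16 it was 3.69% and 3.44% against 0.428% and 0.495%. In ES cells simple keratins gave 46.9% and 47.4%, with the remainder mostly from Krt42 (11.5 CPM per kilobase) and Krt17 (8.76).

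**Figure D5:**
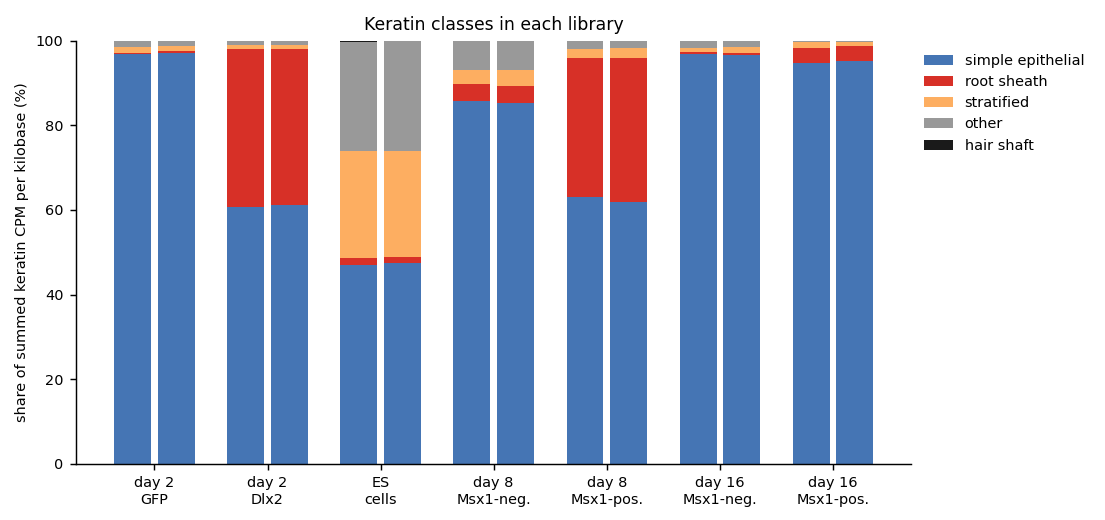
Share of each keratin class in the summed keratin CPM per kilobase (%), with a bar per library in 7 groups. The root sheath share is 37.3% and 37.0% in the Dlx2 EBs, 33.0% and 34.0% in day-8 Msx1-positive cells and below 5% elsewhere.

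The order of the trio differed between the stages. In the Dlx2 EBs Krt25 had 2.1 and 2.01 times the level of Krt27 per kilobase, whereas in day-8 Msx1-positive cells the ratio was 0.747 and 0.780, and in the other sorted libraries it lay between 0.429 and 0.666. Each ratio is taken within a library, and the 2 tables were otherwise scaled separately. Krt25 and Krt27 share sequence, with 10.9% of the 50-base words of Krt25 and 11.1% of those of Krt27 found in another gene, so part of their reads could be assigned either way. In the Dlx2 EBs and in all 8 sorted libraries Krt71 was lower per kilobase than Krt25 and Krt27, and type I root sheath keratins exceeded type II ones 14.2-fold in both Dlx2 libraries and 10.4- and 9.63-fold in day-8 Msx1-positive cells. Over all keratins the type I to type II ratio was 1.76 and 1.73 with Dlx2 and 0.948 and 0.965 with GFP, and 4.56 and 4.57 in ES cells. Krt8 to Krt18, the simple pair, stayed between 1.04 and 1.4 in all EB-derived libraries and was 0.748 and 0.710 in ES cells.

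Hair shaft keratins, the hard keratins of the fibre itself, were near the limit of detection. Krt31, Krt32, Krt34 and Krt35 had no count in the later table and no row at day 2, and a count of 0 allows up to 3 counts per library. Of 13 hair shaft members only Krt87 was tested, at 0.939 ± 0.14 against 0.223 ± 0.029 CPM at day 2, a rise of 2.05 ± 0.51 (adjusted p = 0.00134). Of its 50-base words 36.9% occur in other genes, so its counts are uncertain. The 19 keratins not named individually for their level or a call were all at a group mean of at most 0.266 CPM.

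Genes that act with keratins were read from lists chosen with these data's earlier results known. Of 20 hair follicle regulators in the tables, 18 were tested at day 2, and 15 were higher and 2 lower with Dlx2 (median 1.54), against 34.1% and 33.0% of all genes. Dlx3, a Dlx family homeobox gene of the hair matrix, was at 60.8 against 1.13 CPM (5.74 ± 0.13, adjusted p = 1.89e-20), and Msx2, a homeobox gene of the hair matrix, at 122 against 5.85 (4.38 ± 0.084). Cux1, a homeobox gene of the inner root sheath lineage, rose by 0.80 ± 0.069, and Eda2r, an ectodysplasin receptor, fell by 1.00 ± 0.057. At day 8, 15 of 19 were higher in Msx1-positive cells and 2 lower (median 1.17), against 30.4% and 24.3%, with Runx1 at 45.4 against 4.76 CPM, and at day 16, 12 were higher and 5 lower (median 0.59), against 31.1% and 31.0%. The same shares of all genes stand behind the counts of the lists that follow.

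Of 16 desmosome and plakin partners tested at day 2, 9 were higher, against 34.1% of all genes, and 5 lower, against 33.0%, the latter near the background (median 0.48). Dst, which encodes a plakin, rose by 0.80 ± 0.055, and desmoplakin Dsp was at 303 against 336 CPM (-0.15 ± 0.049, adjusted p = 0.00936). At day 8, Dsp was at 280 CPM in Msx1-positive cells against 71.9 in the other fraction (1.96 ± 0.16, adjusted p = 3.32e-05), and 10 of 16 partners were higher and 2 lower. At day 16, 3 were higher and 7 lower. In the cornified envelope list 2 of 10 were higher and 6 lower at day 2, where loricrin (Lor) rose from 1.13 to 21.6 CPM (4.25 ± 0.27) and trichohyalin (Tchh), a matrix protein of the inner root sheath, was at 4.82 against 4.31 CPM and not called (adjusted p = 0.464). At day 8 that list had 2 of 11 higher and 3 lower, and at day 16, 2 higher and 7 lower.

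Of 16 other intermediate filament genes, 8 rose and 5 fell at day 2, against 34.1% and 33.0% of all genes, so the share that fell is near the background. Vimentin (Vim), the filament of mesenchyme, was at 103 against 61.0 CPM at day 2, at 588 against 74.2 at day 8 and at 1519 against 202 at day 16. At day 8 the counts were 7 higher and 4 lower and at day 16 they were 8 and 6. Epithelial transcription factors went 4 higher and 7 lower of 14 at day 2, 4 and 9 of 17 at day 8 (30.4% and 24.3% of all genes), and 1 and 12 at day 16 (31.1% and 31.0%), where Klf5 was at 32.6 against 206 CPM. These factors too summed highest in ES cells, to 1157 to 1191 CPM, against 214 to 782 in the sorted libraries.

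Genes of other epithelia were set beside the simple keratins, with 34.1% of all genes higher and 33.0% lower at day 2, 30.4% and 24.3% at day 8, and 31.1% and 31.0% at day 16. Epithelial genes other than keratins had 6 of 14 higher and 8 lower at day 2, 3 and 6 at day 8, and all 14 lower in Msx1-positive cells at day 16, where E-cadherin (Cdh1) was at 172 against 406 CPM and their summed level was 594 to 603 against 1350 to 1402 CPM. These genes are not particular to differentiated epithelia, as they summed to 1614 to 1664 CPM in ES cells, more than in any sorted library. Endoderm markers summed to 92.8 to 92.9 CPM in Msx1-positive cells against 430 to 453 in the other fraction at day 16 (6 of 8 lower, 0 of 8 at 0 counts in a sorted library) and to 26.1 to 30.5 against 90.8 to 94.5 at day 8 (1 higher, 5 lower). At day 2 they summed to 8.61 to 9.68 CPM with Dlx2 and 2.06 to 2.31 with GFP (2 of 4 tested higher), with Afp or Apoa1 at 0 in a GFP library. Trophoblast markers summed to 145 against 271 to 274 CPM at day 16 (3 of 9 higher, 5 lower), to 133 to 136 against 186 to 199 at day 8 (2 higher, 6 lower) and to 76.5 to 77.0 against 136 to 140 at day 2 (2 of 7 higher, 3 lower), with Prl3d1 at 0 in several sorted libraries. Mesothelium markers had 4 of 4 lower at day 2, 2 of 5 lower at day 8, and 2 higher and 1 lower at day 16. Single genes carried much of the endoderm and trophoblast sums. Tfap2c of the trophoblast list was at 64.5 against 116 CPM at day 8 and 38.6 against 134 at day 16. Hand1 of that list was called higher, at 54.8 against 38.4 CPM at day 16. Cubn of the endoderm list was at 12.1 against 72.2 CPM at day 8 and 9.20 against 224 at day 16. The part of cells of these epithelia in the simple keratin levels was not tested.

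Epidermis markers other than keratins summed to 90.9 to 92.1 CPM with Dlx2 and 103 to 107 with GFP, with 1 of 4 tested higher and 2 lower. Trp63, the defining factor of stratified epithelium, was at 0.561 against 0.364 CPM at day 2 (adjusted p = 0.3) and at 0.471 against 0.360 at day 8 (adjusted p = 0.434). At day 16 Trp63 was at 1.98 CPM in Msx1-positive against 1.14 in Msx1-negative cells and was not called (adjusted p = 0.0624 by edgeR). At day 8 the list had 2 of 6 higher and 1 lower, and at day 16, 1 of each. Its sum was 77.8 to 80.8 CPM in Msx1-positive against 56.8 to 58.0 in Msx1-negative cells at day 8. At day 16 it was 84.6 to 96.6 against 69.8 to 70.5 CPM. Perp was called higher, at 63.0 against 32.1 CPM at day 8 and 81.8 against 51.1 at day 16. Grhl3 was called lower, at 14.9 against 24.6 and 6.42 against 17.5 CPM. ES cell markers were lower in all 5 genes in Dlx2 EBs and in Msx1-positive cells of both days, and ectomesenchyme markers were higher for 5 of 6 genes at days 2 and 8 alike, and for all 6 at day 16, a list that includes the sorted gene Msx1. Whether the root sheath keratins and these markers stand in the same cells was not measured in bulk libraries.

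Counts of some members may carry reads of other genes, which was not measured on the reads. The 50-base words of Krt8 are 29.7% shared, most with Krt8-ps, those of Krt16 37.6% and those of Krt14 13.9%, while Krt19 shares none and Krt18 0.72%. The library kit does not mark strand, and Krt5, Krt7, Krt8, Krt10, Krt12, Krt32, Krt75, Krt76, Krt80 and Krt90 each overlap an exon of a gene on the other strand. Of counts from 1 to 8, 62.8% to 69.0% were even in the libraries of ES cells and days 8 and 16, against 45.0% to 49.3% at day 2, so counting intervals there may be too narrow.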

How the data were processed

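RNA-seq gene counts of 14 mouse libraries in 7 groups, 2 per group, were analysed, in one table of day 2 and another of ES cells and days 8 and 16. The deposited values are read counts per gene made by the authors, not normalized. Per the submitters' processing notes, fastp 0.20.0, HISAT2 2.1.0 and DESeq2 1.18.1 were used with GRCm38; for the counting program, the name is not given in the sources used here, nor is the annotation. Of 18 samples in the labels, 4 uninduced day-2 samples are not analysed here, and the day-2 columns were read as the induced groups. The day-2 table lists only symbols whose 4 counts sum to at least 5.

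Counts were filtered with filterByExpr, scaled by TMM and tested with edgeR 4.0.16 (R 4.3.3, quasi-likelihood, robust), with Benjamini-Hochberg adjustment over all genes and a threshold of 0.05. There were 3 fits: day 2 with 4 libraries, the sorted cells with 8, and the sorted and ES cells with 10. DESeq2 1.42.0, other scalings and filters, a replicate block and leaving out each library were alternatives. The scripts were tested on simulated data. With 2 libraries against 2 an exact permutation test cannot go below p = 0.333, so tests across all genes were used.

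Ratios against 1 to 3 counts carry an exact 95% interval, and groups without a count a floor of 3 counts over the group; both cover counting error only. Keratins were named at a group mean of at least 1 CPM or a call in any comparison; of each list up to 4 genes with the highest mean CPM were eligible to be named. The members, classes and gene lists were chosen with earlier results of these data known. Promoter windows came from RefSeq (GRCm38.p6).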

Additional observations from a re-analysis of the deposited data

Results flagged for a closer look

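For 17 keratins the Msx1-positive minus Msx1-negative difference was not the same at day 16 as at day 8, by edgeR's interaction test with Benjamini-Hochberg adjustment over all genes, and in all 17 the day-16 value was lower. Among simple keratins the log2 change of the effect was -1.68 for Krt7, -1.23 for Krt8, -1.08 for Krt18 and -0.92 for Krt19. Among root sheath keratins it was -1.91 for Krt25, -1.62 for Krt27, -1.67 for Krt71 and -1.89 for Krt28. Among stratified keratins it was -3.89 for Krt9, -3.49 for Krt14, -3.95 for Krt16, -2.15 for Krt17 and -3.24 for Krt79. Among the others it was -4.40 for Krt23, -3.21 for Krt42, -2.70 for Krt80 and -2.86 for Krt87.

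Some of these rest on 1 library. The call of Krt28 was lost without day-8 Msx1-positive replicate 1 (-1.65), day-8 Msx1-negative replicate 1 (-1.87) or 2 (-1.88), day-16 Msx1-positive replicate 1 (-1.92) or 2 (-1.87), or day-16 Msx1-negative replicate 1 (-1.15). Krt9 lost its call without day-8 Msx1-positive replicate 2 (-3.18) and Krt87 without day-16 Msx1-negative replicate 2 (-2.44). Krt71 kept its call at -1.0 without day-16 Msx1-negative replicate 2. The summed endoderm and trophoblast markers of the fractions, given above, also differ between the days, and their part in these differences was not tested.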

How the results depend on the processing

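Of the keratins called, those called under every alternative that tested them were 15 of 22 at day 2, 14 of 20 at day 8, 17 of 20 at day 16 and 14 of 17 for the difference between days; over time they were 19 of 23 in Msx1-positive and 11 of 17 in Msx1-negative cells, and against ES cells 19 of 27, 11 of 15, 15 of 20 and 15 of 15. Requiring at least 1 CPM in at least 4 libraries tests fewer genes by construction, with 7 keratins tested at day 2 and 14 later. At day 2 this filter asks for 1 CPM in every library, those of GFP included. It therefore left out all root sheath keratins, which were below that in GFP EBs. Among the keratins it tested at day 2 it left 2 higher and 3 lower, against 36.4% and 36% of all genes. It left 8 higher at day 8, against 36.8%, and 4 higher and 8 lower at day 16, against 38% and 37.7%. For the difference between days 11 were lower, against 23.4%. Over time in Msx1-positive cells 8 were lower, against 30%. Against ES cells it left 12 higher in day-8 Msx1-positive cells, against 40.7%. It left 1 lower in day-8 Msx1-negative cells, against 21.5%. In day-16 Msx1-positive cells 2 were lower, against 41.6%, and in day-16 Msx1-negative cells 1, against 32.6%. Leaving out a library gave 3 to 5 lower keratins in day-16 Msx1-positive against ES cells. With library size alone Krt8 (0.02) and Krt18 (0.001) turned positive at day 2, where that scaling shifts the median of all genes alike, from 0.02 to 0.20. Replicate numbers of the sorted and ES libraries share only a number (correlations of same-numbered deviations from -0.046 to 0.115). With the replicate block 16 keratins rather than 17 were higher at day 8, Krt26 (2.64, adjusted p = 0.0503 by edgeR) losing its call, and no other keratin call was lost or gained. No paired analysis was possible at day 2 because the columns carry no replicate number. Halving the counts of the later table, chosen after seeing the data, gave 18 higher at day 8 and 16 lower for the difference between days. Low counts limit the hair shaft keratins and most stratified ones.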

Other observations

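Symbols outside the rule for members held counts too, and were chosen after their values were seen. Krt6a, a keratin of wounded epidermis and of the follicle's companion layer, was at 1.00 and 1.02 CPM in the day-8 Msx1-positive libraries and at 0.0648 and 0.0369 in the Msx1-negative ones, and had no count in ES cells. Krt6b, a near copy of it, had 36 and 76 counts in day-8 Msx1-positive cells, 0 in day-8 Msx1-negative, day-16 Msx1-positive and ES cells, and 2 in day-16 Msx1-negative cells. Reads of such near copies can be assigned either way. Krt74, annotated as a pseudogene, had 5 counts in the Dlx2 EBs and 0 in the GFP EBs. The pseudogene Krt8-ps was at 1.04 ± 0.24 CPM in day-16 Msx1-negative and 0.462 ± 0.10 in Msx1-positive cells, the same order as Krt8, with which it shares sequence.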
